A study of Arabidopsis thaliana with 12 samples.

Results

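The CAMTA genes of Arabidopsis encode transcription factors that bind calmodulin, and 3 of them, AT1G67310, AT4G16150 and AT3G16940, were followed here in rosette leaves 5 min after mechanical wounding. They are the members of the family to which the platform annotation assigns a spot, and each had 1 spot among 22575. They are 3 of 9253 genes with a named spot. Wounded leaves of Columbia-0 plants were set against leaves of the same ecotype that were not wounded. Each group comprised 3 biological samples, every one a pool of soil-grown plants whose rosette leaves had been crushed with a hemostat or left intact, so the values describe whole leaves with damaged and undamaged parts together. The 12 two-colour arrays held each wounded sample together with the not wounded sample of its replicate, on 4 arrays per replicate, with the wounded sample in Cy5 on 6 arrays and in Cy3 on the other 6. On 1 array of replicate 3 the label of the wounded channel carries another replicate number than the title, and the title was followed. In such bulk samples, fewer cells of a type and less RNA per cell cannot be told apart.

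Calmodulin is a small protein that changes shape when it binds calcium, and calcium in the cytosol rises within moments of a wound. CAMTA proteins carry a DNA-binding domain called CG-1, ankyrin repeats and IQ motifs to which calmodulin attaches, and they recognise DNA with a CGCG core. In Arabidopsis the family member SR1 (CAMTA3) is known for holding back salicylate-dependent defence in unstressed leaves and for helping to switch on CBF genes in the cold. The comparison asks whether transcripts of the regulators themselves differed at a time when their calcium signal would be fresh. The other 3 members listed for the family, EICBP.B (CAMTA1), AT5G64220 (CAMTA2) and SR1, have no spot that carries their name and were not analysed here.

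None of the 3 CAMTA genes passed an adjusted p under 0.05 for wounding. Among all 20072 genes and spots tested, 7.25% passed as higher and 7.24% as lower. At an unadjusted p under 0.05 from the same limma fit, 1 of the 3, AT1G67310, was higher and none was lower, where 16.6% of all tested genes and spots were higher and 16.4% lower. AT1G67310 had the largest mean ratio of the 3, at 1.25-fold, while AT4G16150 stood at 1.07-fold and AT3G16940 at 1.01-fold. The 95% intervals from limma ran from 1.05 to 1.47-fold for AT1G67310, from 0.895 to 1.27-fold for AT4G16150 and from 0.877 to 1.15-fold for AT3G16940, so each of them lay below a 2-fold difference in either direction. The median absolute log2 ratio over all tested genes and spots was 0.13.

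AT1G67310 gave a readable signal in both conditions. Its processed signal, averaged over the 4 arrays of a replicate, was 376.5, 386.5 and 348.5 in the 3 wounded samples, against 255, 340.0 and 301 in the 3 not wounded samples. The lowest wounded sample lay above the highest sample that was not wounded, and this holds for 4.91% of all tested genes and spots. The means were 370.5 ± 19.7 in wounded leaves and 299 ± 42.4 in leaves that were not wounded (SD, n = 3 each). Relative to the median spot of its channel, its log2 level was -0.39, -0.29 and -0.23 in the wounded samples, against -0.92, -0.47 and -0.45 in the samples that were not wounded. On this scale too, all wounded samples stood above all others. The not wounded sample of replicate 1 was the lowest of the 6 and set the widest gap.

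The log2 ratio of wounded over not wounded for AT1G67310 was 0.54, 0.18 and 0.23 in replicates 1, 2 and 3, with a mean of 0.32 ± 0.20 (SD, n = 3). The limma fit gave it an adjusted p of 0.088 and an unadjusted p of 0.020. It was positive in 3 of 3 replicates, as for 28.5% of all tested genes and spots. It was positive on 12 of 12 arrays, whichever dye the wounded sample carried, as for 7.47% of all tested genes and spots. Of the 1500 genes and spots with this property, 1001 passed the adjusted threshold, and their median log2 ratio was 0.40. Single arrays ranged widely, from 0.0045 in replicate 2 to 0.87 in replicate 1. The means of the 6 dye-swap pairs were 0.68 and 0.41 in replicate 1, 0.24 and 0.11 in replicate 2, and 0.27 and 0.20 in replicate 3. Replicate 1 therefore gave the 2 largest pair means. Without replicate 1 the mean log2 ratio was 0.20, over 1.5 times smaller, and the adjusted p was 0.070. Without the array of the differing label they were 0.30 and 0.19. A higher log2 ratio than that of AT1G67310 was measured for 9.61% of all tested genes and spots.

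**Figure D1:**
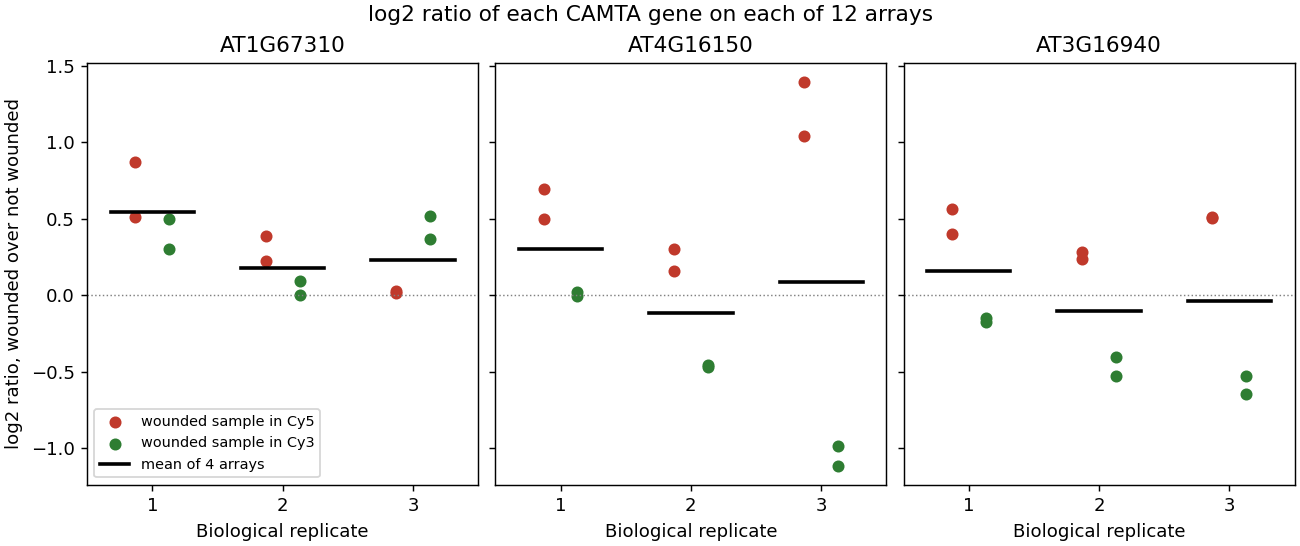
Log2 ratio of wounded over not wounded on each of the 12 arrays (y axis) by biological replicate (x axis) for the 3 CAMTA genes, with points coloured by the dye of the wounded sample and a black bar for the mean of the 4 arrays. All 12 points of AT1G67310 lie above 0, while in replicates 2 and 3 the points of AT4G16150 and AT3G16940 lie above 0 with the wounded sample in Cy5 and below 0 with it in Cy3.

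AT4G16150 differed more between replicates than between wounded and not wounded leaves. Its processed signal was 575.5, 360.2 and 290.2 in the 3 wounded samples, against 477, 387 and 293 in the 3 not wounded samples. The groups overlapped, and both samples of replicate 1 were the highest of their group. The means were 409 ± 149 in wounded leaves and 386 ± 91.9 in leaves that were not wounded (SD, n = 3 each). Its log2 ratio was 0.30, -0.12 and 0.08 in replicates 1, 2 and 3, with a mean of 0.09 ± 0.21 (SD, n = 3; limma adjusted p = 0.56). The sign was positive in 2 replicates and negative in 1. Of the 12 arrays, 7 had a higher wounded signal and 5 a lower one. The mean log2 ratio was -0.016 without replicate 1 and 0.21 without the array of the differing label, and neither passed the test.

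AT3G16940 had nearly equal means in the 2 conditions. Its processed signal was 381, 343 and 306 in the 3 wounded samples, against 344, 365 and 317 in the 3 not wounded samples. The wounded value was the higher one in replicate 1 alone, and the range of the not wounded samples lay within that of the wounded samples. The means were 343 ± 37.5 in wounded leaves and 342 ± 23.9 in leaves that were not wounded (SD, n = 3 each). Its log2 ratio was 0.16, -0.10 and -0.04 in replicates 1, 2 and 3, with a mean of 0.01 ± 0.14 (SD, n = 3; limma adjusted p = 0.96). The wounded signal was higher on 6 of 12 arrays, all with the wounded sample in Cy5, and lower on the 6 with it in Cy3. The mean log2 ratio was -0.070 without replicate 1 and 0.07 without the array of the differing label, and neither passed the test.

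**Figure D2:**
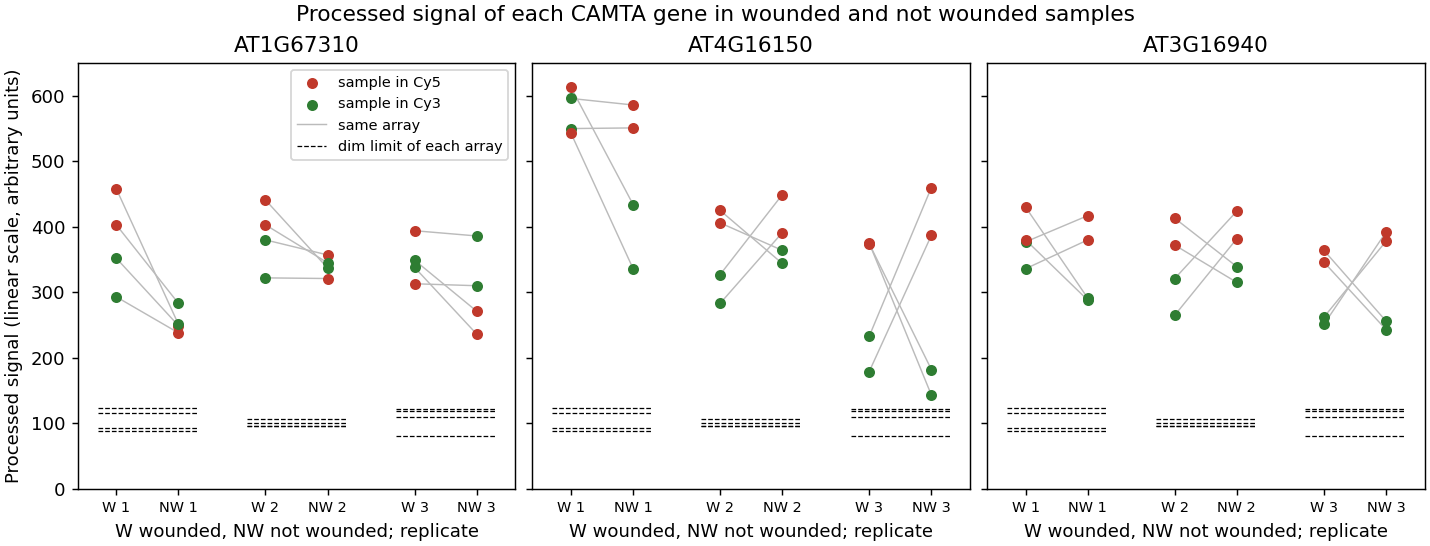
Processed signal on a linear scale (y axis) of the 3 CAMTA genes in each wounded (W) and not wounded (NW) sample by replicate (x axis), with points coloured by dye, grey lines joining the 2 samples of an array and dashed lines at the dim limit of each array. Every point lies above the dim limit of its array, and in replicate 3 the Cy3 signals of AT4G16150 lie between 143 and 233 while its Cy5 signals lie between 374 and 460.

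All 3 spots were above the dim limit in both samples on 12 of 12 arrays. The dim limit is the signal below which 95% of the signals fell at spots whose deposited ratio was set to exactly 0, and it was 81.0 to 124, depending on the array. The smallest signal was 2.18 times the dim limit of its array for AT1G67310 and 2.06 times for AT3G16940. For AT4G16150 it was 1.17 times, on an array of replicate 3.

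The ratios of AT4G16150 and AT3G16940 differed between the dye orientations by more than their mean difference between wounded and not wounded leaves. The mean log2 ratio of AT4G16150 was 0.68 over arrays with wounded leaves in Cy5 and -0.50 over those with wounded leaves in Cy3, a difference of 1.18. For AT3G16940 it was 0.42 and -0.40, a difference of 0.82. For AT1G67310 it was 0.34 and 0.30, a difference of 0.04. In a limma fit over the 12 arrays with the replicate as a random block, the dye difference had an adjusted p of 0.0011 for AT4G16150, 6.8e-06 for AT3G16940 and 0.80 for AT1G67310, where 63.4% of all tested genes and spots passed. That fit takes 1 dye difference for all replicates. Taken within each replicate and tested over the 3 replicates, the dye difference had an adjusted p of 0.12 for AT4G16150, 0.035 for AT3G16940 and 0.89 for AT1G67310 from limma, and 23.8% of all tested genes and spots passed.

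Replicate 3 stood apart for AT4G16150. Its dye difference on the log2 scale was 0.58 in replicate 1, 0.69 in replicate 2 and 2.26 in replicate 3. The Cy3 signal of this spot averaged 479, 329.5 and 184 in replicates 1, 2 and 3, and the Cy5 signal 573, 418 and 399. For AT3G16940 the dye difference was 0.64, 0.73 and 1.10 in the 3 replicates, with the same sign in each. For AT1G67310 it was 0.29, 0.26 and -0.42. The sign of the dye difference of AT1G67310 therefore turned in replicate 3, where the wounded sample read 0.02 in Cy5 and 0.44 in Cy3. Each mean over a replicate holds both orientations equally, so a dye difference that is equal on both arrays of a pair cancels in it.

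The 3 genes kept a similar order across replicates. Each had its highest log2 ratio in replicate 1 and its lowest in replicate 2, an order found in 19.8% of all tested genes and spots. The log2 ratio of AT1G67310 exceeded that of AT4G16150 by 0.24, 0.29 and 0.15 in replicates 1, 2 and 3, a mean difference of 0.23 ± 0.07 (SD, n = 3). It exceeded that of AT3G16940 by 0.38, 0.28 and 0.27, a mean difference of 0.31 ± 0.06 (SD, n = 3). AT4G16150 exceeded AT3G16940 by 0.08 ± 0.09 on average (SD, n = 3), but not in replicate 2, where the difference was -0.01. By an exact permutation test over the 3 replicates (sign flips, two-sided), the p was 0.25 for both differences that involve AT1G67310, which is the smallest this design allows, and 0.50 for the other. Adjusted over the 3 pairs, they were 0.38, 0.38 and 0.50. With 3 replicates, sign flips cannot give a p under 0.05, and no other test of these differences was run.

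**Figure D3:**
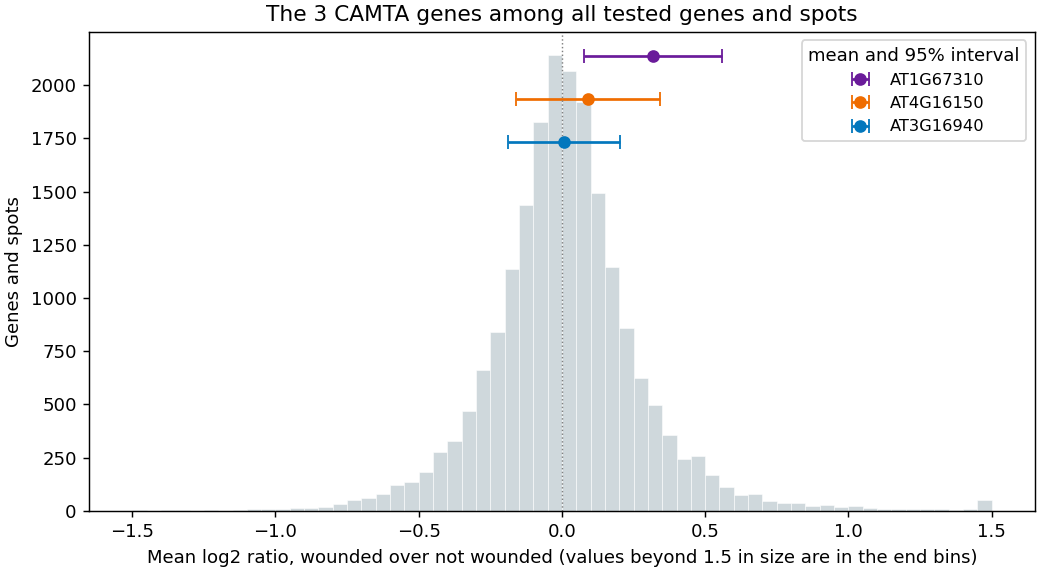
Histogram of the mean log2 ratio of wounded over not wounded (x axis) for all 20072 tested genes and spots (y axis, number of genes and spots), with values beyond the axis gathered in the end bins and the mean and limma 95% interval of each CAMTA gene drawn over it. The interval of AT1G67310 lies to the right of 0, from 0.08 to 0.56, and those of AT4G16150 and AT3G16940 span 0.

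Across the 12 turned arrays, which include both dye orientations, the ratios of AT4G16150 and AT3G16940 followed each other with a Pearson r of 0.92. The part of the dye in this r was not tested, and how often other pairs of genes reach it was not examined. AT1G67310 had an r of -0.11 with AT4G16150 and 0.08 with AT3G16940 over the same arrays. When both dyes were averaged into 1 level per sample, r over the 6 sample levels was 0.09 for AT4G16150 with AT3G16940, -0.39 for AT1G67310 with AT4G16150 and 0.45 for AT1G67310 with AT3G16940. The 6 levels are 3 pairs that share arrays, and r is given as a description.

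Over the same 6 sample levels, the named genes most like AT1G67310 among 8733 were ATSIK (AT3G08760, r = 0.99), AT1G22550 (r = 0.99) and AT1G57980 (r = 0.98). Wounded over not wounded, they had log2 ratios of 0.25, 0.23 and 0.27, and none passed the test (limma adjusted p of 0.11, 0.14 and 0.10). Those most like AT4G16150 were AT3G25150, AT5G20610 and AT5G16210, with r of 1.00, 0.99 and 0.99 and log2 ratios of 0.06, 0.02 and 0.06. For AT3G16940 the closest were XTH33 (AT1G10550), AT1G02470 and AT2G48030, with r of 0.95, 0.95 and 0.94 and log2 ratios of 0.04, -0.09 and -0.06. XTH33 encodes a xyloglucan endotransglucosylase of the cell wall. Its log2 ratio was 1.56 in replicate 1 and -0.83 and -0.62 in replicates 2 and 3. With 6 levels a high r is easily reached: 16 named genes had an r above 0.95 with AT1G67310, 77 with AT4G16150 and 1 with AT3G16940. The genes were picked on the same levels that give their ratios, so a ratio near that of the member is no separate result.

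The genes next to the CAMTA genes in the TAIR10.1 annotation did not pass the test where they had a tested spot. AT1G67300, beside AT1G67310, read -0.02 ± 0.06 as its log2 ratio (SD, n = 3; limma adjusted p = 0.82). AT4G16146 and AT4G16155, on the 2 sides of AT4G16150, had 0.94 ± 0.65 and -0.24 ± 0.04 (SD, n = 3 each; limma adjusted p = 0.074 and 0.057). The gene model of AT3G16940 overlaps that of its neighbour LPD1, for which no spot was tested. The neighbours of AT4G16150 thus had ratios of opposite sign, and its own lay between them.

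Few of the listed calmodulins, calmodulin-binding proteins and proposed CAMTA targets carried a named spot. None of 9 listed calmodulin genes, CAM1 to CAM9, had one. Of 8 loci listed for the CBP60 family, which is named for calmodulin-binding proteins, 5 were tested. These 5 are not among the listed CAMTA targets. Of these 5, 1 was higher, 0 were lower and 4 did not pass. Among all tested genes and spots, 7.25% passed as higher and 7.24% as lower. The counts of the 5 loci at an unadjusted p under 0.05 from limma were the same, where 16.6% of all were higher and 16.4% lower. The median log2 ratio of the 5 loci was 0.10, against 0.0046 over all tested genes and spots and 0.09 over the 3 CAMTA genes. This median is the value of AT2G24300, a spot near background, above the dim limit on 9 of 12 arrays in wounded and 6 of 12 in not wounded leaves. Its log2 ratio was 1.18 with wounded leaves in Cy5 and -0.98 with them in Cy3. The locus that passed was AT2G18750, with log2 ratios of 0.61, 0.33 and 0.30 in replicates 1, 2 and 3 and a mean of 0.41 ± 0.17 (SD, n = 3; limma adjusted p = 0.041). It read 0.42 on arrays with wounded leaves in Cy5 and 0.41 on the others. Its limma adjusted p was 0.14 when replicate 2 was left out, 0.095 when replicate 3 was, and 0.085 without the array of the differing label, so the call was lost each time. It was also lost with no filter on dim spots (0.058), with Cy5 only (0.056), with Cy3 only (0.075) and with unpaired channels (1), which makes 7 of 18 alternatives. The highest mean of the list belonged to AT4G31000, with 0.53 ± 0.74 (SD, n = 3; limma adjusted p = 0.27), which rested on a log2 ratio of 1.38 in replicate 1, next to 0.22 and -0.01 in the others. AT4G31000 read 1.01 with wounded leaves in Cy5 and 0.04 with them in Cy3, and its not wounded signal passed the dim limit on 10 of 12 arrays. The lowest mean was that of AT4G25800, with -0.08 ± 0.18 (SD, n = 3; limma adjusted p = 0.59). It read -0.85 with wounded leaves in Cy5 and 0.70 with them in Cy3.

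Of 15 genes listed as proposed CAMTA targets, 1 had a named spot and was tested, namely EIN3, the transcription factor at the head of ethylene responses. The list also holds CBF1, CBF2, CBF3 and ZAT12, which the paper places among its rapid wound response genes. No spot carries their names here, so their ratios were not read, and EIN3 does not stand for the list. EIN3 had log2 ratios of 0.69, 0.25 and 0.07 in replicates 1, 2 and 3, with a mean of 0.34 ± 0.32 (SD, n = 3; limma adjusted p = 0.16). It was higher in 3 of 3 replicates, but its mean was 0.78 on arrays with wounded leaves in Cy5 and -0.10 on the others. As in the CAMTA genes, its ratio was highest in replicate 1. The same held for AT5G57580, AT2G18750 and AT4G31000 of the CBP60 list, but not for AT4G25800 and AT2G24300. The share of all tested genes and spots with replicate 1 highest was not counted.

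**Figure D4:**
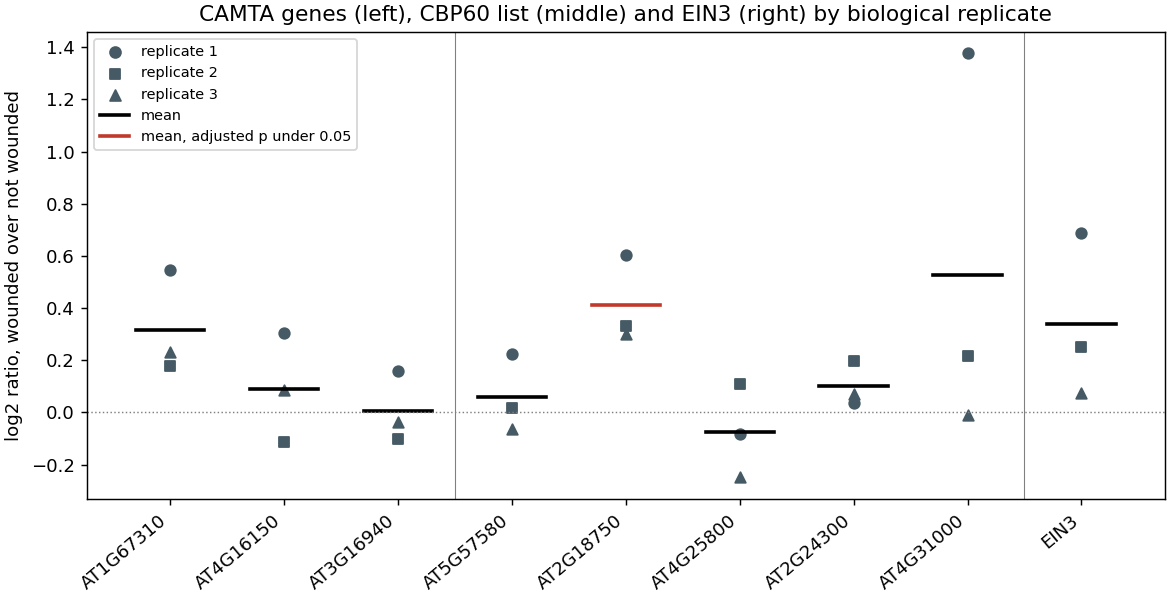
Log2 ratio of wounded over not wounded (y axis) in each biological replicate for the 3 CAMTA genes, 5 loci of the CBP60 list and EIN3 (x axis), with a bar for the mean, red where the adjusted p from limma is under 0.05. The red bar is that of AT2G18750 alone, and replicate 1 is the highest point of each CAMTA gene.

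Leaf markers were bright in both conditions. RCA, which encodes Rubisco activase, had a mean signal of 140800 in wounded and 190200 in not wounded leaves, and LHCB4.1, an antenna protein of photosystem II, 302100 and 325100. Of these 2 tested markers of 16 listed, RCA was called lower in wounded leaves, as were 7.24% of all tested genes and spots. The log2 ratio of RCA was -0.45 ± 0.19 (SD, n = 3; limma adjusted p = 0.041). LHCB4.1 had -0.03 (limma adjusted p = 0.86), the mean of -0.73 with wounded leaves in Cy5 and 0.66 with them in Cy3. The RCA call was lost when replicate 2 (limma adjusted p = 0.18), replicate 3 (0.13) or the array of the differing label (0.099) was left out. With no filter on dim spots (0.057), Cy5 only (0.059) and unpaired channels (1) it was lost too, in all in 6 of 18 alternatives. Of 5 listed root markers 2 were tested, PYK10 with a log2 ratio of 0.09 (limma adjusted p = 0.83) and EXPA7 with 0.01 (limma adjusted p = 0.96). PYK10 read 0.63 with wounded leaves in Cy5 and -0.44 with them in Cy3, and EXPA7 read -0.73 and 0.75. In replicates 1, 2 and 3 the log2 ratio of PYK10 was -0.62, 0.69 and 0.20. The mean signal of EXPA7 was 313.8 in wounded and 312.5 in not wounded leaves, above the dim limit on 12 of 12 arrays in both. That of PYK10 was 264.1 and 287.6. A signal above the dim limit therefore does not by itself show expression in leaves, and this holds for the CAMTA spots too. The listed markers of epidermis, guard cells and vascular tissue had no named spot. The part of cell makeup in the CAMTA ratios was not tested.

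**Figure D5:**
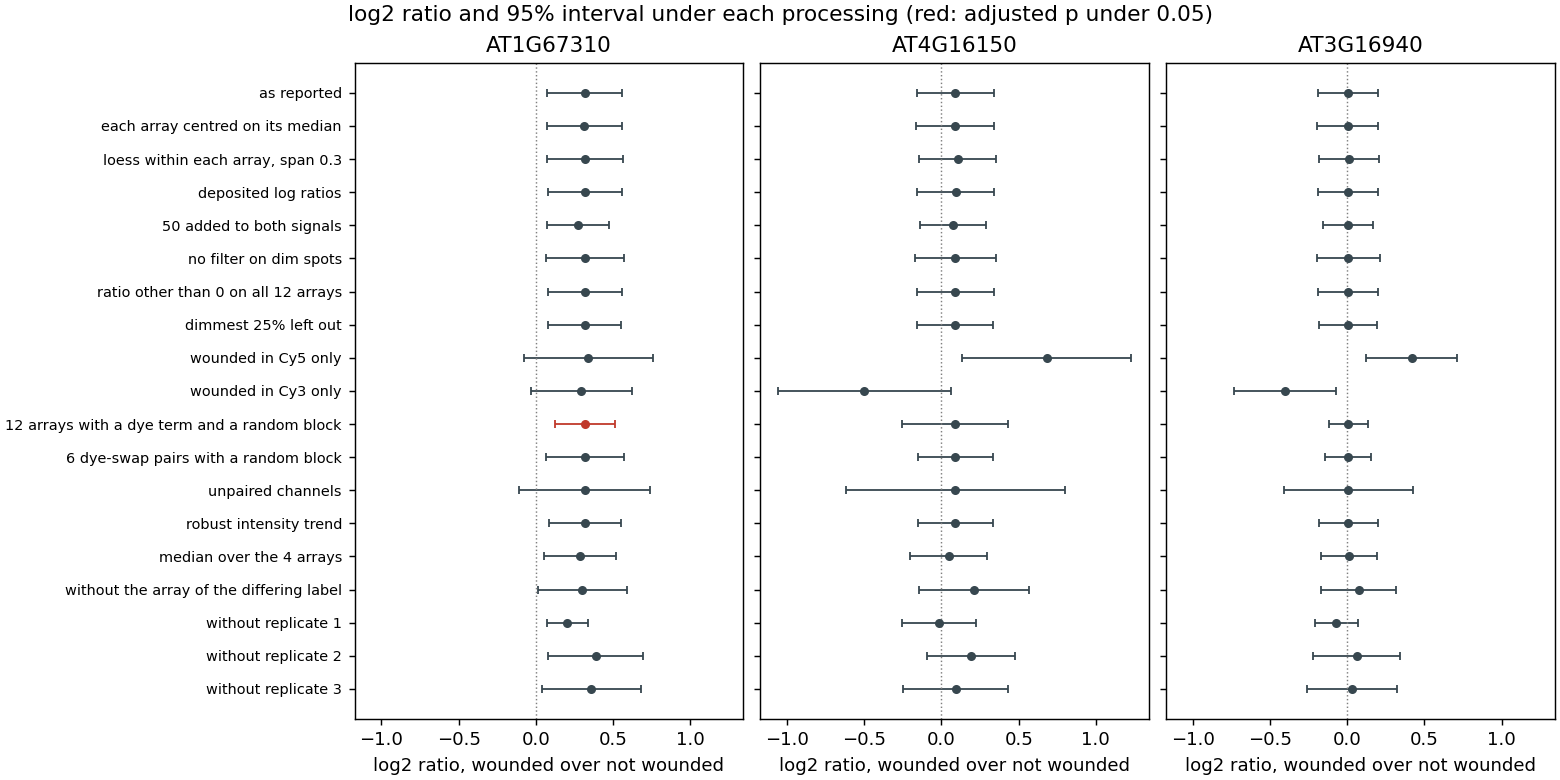
Log2 ratio of wounded over not wounded (x axis) of the 3 CAMTA genes as reported and under each of 18 other ways of processing (y axis), with 95% intervals from limma. The ratio of AT1G67310 stays between 0.20 and 0.39 and is red, for an adjusted p under 0.05, in 1 of the 18, while those of AT4G16150 and AT3G16940 have opposite signs on the arrays of the 2 dye orientations.

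The sign of AT1G67310 was the same in all 18 alternatives, whereas AT4G16150 and AT3G16940 each changed sign in 2 of them. AT1G67310 passed the threshold in 1, where the 12 arrays were fitted singly with a dye term and the biological replicate as a random block. Its limma adjusted p was 0.016 there, and over the 18 alternatives it spanned 0.016 to 1. The highest value came with the channels taken as unpaired groups, where the unadjusted p was 0.13.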

How the data were processed

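RNA of wounded and not wounded leaves was hybridised to 12 two-colour oligonucleotide arrays. Scans were read by the authors in Agilent Feature Extraction 8.1 (per the submitters' processing notes), and the deposited intensity of each dye is background-subtracted and dye-normalized, which the methods describe as scaling on housekeeping genes. The authors also deposited a log10 ratio of Cy5 over Cy3, limited to 2 in size and exactly 0 at 1129 to 2714 dim spots per array. Depth has no meaning for arrays, whose number limits the precision. Flags, slides and scans were not used here.

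Ratios of the deposited signals were put on the log2 scale as wounded over not wounded by the channel labels. Each replicate got 1 mean of its 4 arrays, and several spots of 1 gene were averaged. Spots with a deposited ratio of 0 on both arrays of any of the 6 dye-swap pairs were left out. Under limma 3.58.1 (R 4.3.3), lmFit and eBayes set the mean of the 3 replicates against 0, and p-values were adjusted by Benjamini-Hochberg over all 20072 genes and spots. These steps were also run on simulated data with differences larger than those of the 3 CAMTA genes. That run therefore does not show how often differences of their size are found. Alternatives covered centring, loess, added signal, filters, single dyes, blocks, unpaired channels and left-out arrays or replicates.

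Names came from the platform annotation, where 9335 spots have 1 gene, and 9317 of these matched TAIR10.1 through Entrez identifiers. The annotation lists the 3 genes by locus only. The members and gene lists were chosen with earlier results of these data known. Besides the members, the rule named tested genes of the lists (all of them up to 4, otherwise those that passed and the extremes) and the 3 genes most alike per member. Neighbouring genes were added after the values were seen. Promoter and protein sequences were not analysed here.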

Additional observations from a re-analysis of the deposited data

How the results depend on the processing

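The limits are the 3 biological replicates and the dye. Over 18 alternatives, the log2 ratio of AT1G67310 kept its sign, at 0.20 to 0.39, and the same side of the threshold in all but the fit of 12 single arrays (0.32, adjusted p = 0.016 from limma). That fit counts 12 arrays where the reported one counts 3 replicates. AT4G16150 turned to -0.50 and AT3G16940 to -0.40 with the wounded sample in Cy3 only, against 0.68 and 0.42 with it in Cy5 only. Leaving out each replicate in turn gave 0.20 to 0.39 for AT1G67310, -0.016 to 0.19 for AT4G16150 and -0.070 to 0.061 for AT3G16940. The negative values came without replicate 1. Without the array of the differing label, which leaves replicate 3 with unequal dyes, AT4G16150 had 0.21 and AT3G16940 0.07. Neither passed in any of the 18, where the smallest adjusted p was 0.068 and 0.051 from limma. With the dye difference taken within replicates, an alternative chosen after seeing the data, the call for AT4G16150 was lost (1.18, adjusted p = 0.12 from limma).

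Over all genes and spots, 1455 were called higher and 1454 lower. Both counts lay within 1.5 times of these in 10 of 18 alternatives. The others gave 27 higher and 0 lower for unpaired channels, 139 and 51 without replicate 2, 173 and 82 without the array of the differing label, 334 and 220 without replicate 3, 2533 and 2570 for dye-swap pairs, 3095 and 3046 for single arrays, 2837 and 3145 for Cy5 only, and 3847 and 3234 for Cy3 only. For unpaired channels, limma called 583 higher and 278 lower at an unadjusted p under 0.05.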
